A study of Mus musculus with 6 samples.

Results

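Cell-cycle and DNA replication genes were followed as a set of 44 symbols, out of 35275 genes in the deposited count table, in endothelium-enriched cells of the mouse liver. The symbols were a given list of cyclins, their kinases, replication factors and mitosis genes, and all 44 had an identifier in the table. All cells came from 1-year-old p16-Cre/Rosa26-mTmG mice, in which a Cre recombinase under the p16 promoter switches a membrane reporter to GFP, and both sorted fractions shared these alleles and this age. CD31-positive cells were isolated from digested liver with magnetic beads and sorted into 3 GFP-positive and 3 GFP-negative libraries for poly-A RNA sequencing. GFP records past or present use of the p16 promoter in a cell or its ancestors, so the gate reports a history and not the current level of p16. The labels name neither the animals nor any pooling, so the p-values here measure the spread between libraries, which may be technical, and they do not say whether the cells had been cultured before the RNA was taken.

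Cells enter the division cycle when D-type cyclins, bound to the kinases CDK4 and CDK6, phosphorylate the retinoblastoma protein and release E2F transcription factors. E2F factors then switch on the genes that license and copy DNA, and a later programme, driven by B-MYB and FOXM1, switches on the genes of mitosis. p16 blocks CDK4 and CDK6, and for this reason cells with an active p16 promoter are commonly asked whether they still express the genes of the cycle. Most liver endothelial cells of adult mice rest outside the cycle, and D-type cyclins, unlike the later cyclins, are also expressed by many resting cells.

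The libraries held 16766556 to 22627555 counts. Cdkn2a, the gene of p16, was counted as a whole gene and not by transcript. It had 0 counts in each GFP-negative library and 15, 27 and 7 counts in GFP-positive libraries 1 to 3. The GFP-positive level was at least 19.4-fold higher (against 3 counts over the GFP-negative group). The endothelial genes Pecam1, Cdh5 and Kdr were detected in all 6 libraries, with Pecam1 at 307 to 387 CPM (counts scaled to a common library size, with trimmed-mean scaling factors) in GFP-negative and 412 to 520 CPM in GFP-positive libraries. The fractions differed in the RNA of cell-type markers as well as in GFP. The summed level of 9 B cell markers was 13207 to 14433 CPM in GFP-negative and 93.0 to 170 CPM in GFP-positive libraries, with all 9 lower, led by Ighm, and Pax5 at 0 counts in every GFP-positive library. That of 8 Kupffer cell markers was 843 to 1073 CPM against 12769 to 14297 CPM, with all 8 higher, led by Clec4f. That of 12 pan-endothelial markers was 2062 to 2250 CPM against 4237 to 4890 CPM, with 7 higher and 5 not past the test.

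Of the 44 cell-cycle genes 35 passed the filter on low counts, and of these 5 were higher, 4 were lower and 26 did not pass the test in GFP-positive libraries (edgeR's quasi-likelihood test, Benjamini-Hochberg adjusted p under 0.05 over 12122 genes). The higher genes were the 3 D-type cyclins Ccnd1, Ccnd2 and Ccnd3, their partner kinase Cdk4, and the mitotic kinase Aurkb. The lower genes were the replication licensing factors Cdt1 and Mcm7, the phosphatase Cdc25b and the microtubule regulator Stmn1. Over all genes tested 7.65% were higher and 10.1% lower, against 14.3% and 11.4% of these 35, so the share lower was near that of all genes. Groups did not overlap in 14 of the 35, with GFP-positive libraries above in 7 and below in 7, against 18.5% and 23.9% of all genes tested. The log2 fold change was negative in 14 of the 35 and in 52.8% of all genes. The median log2 fold change (GFP-positive minus GFP-negative) was 0.13 over the 35 genes and −0.09 over all genes tested, and without GFP-negative library 2 that of the cell-cycle genes was −0.05. In bulk RNA, fewer cells of a type and less RNA per cell cannot be told apart, which applies to every difference given here.

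**Figure D1:**
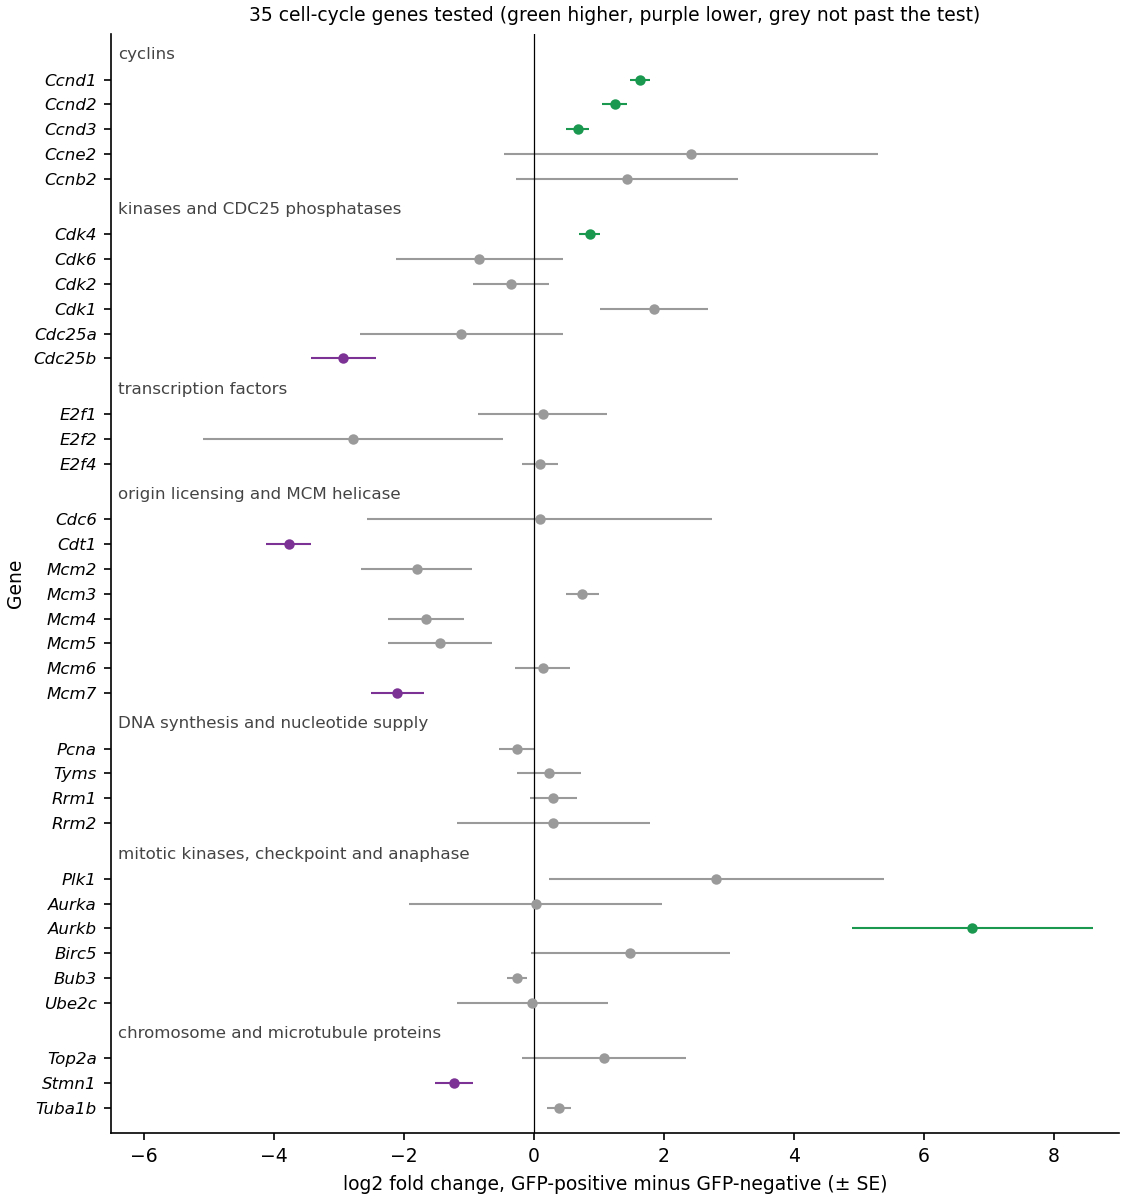
Log2 fold change, GFP-positive minus GFP-negative, with its standard error for the 35 cell-cycle genes tested, ordered by role on the vertical axis. The 5 genes in green were higher and the 4 in purple lower by edgeR's quasi-likelihood test, and the grey genes did not pass.

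The D-type cyclins, which carry growth signals into the cycle, were all higher in GFP-positive libraries. Ccnd1 (ENSMUSG00000070348) stood at 169, 155 and 144 CPM in GFP-negative libraries 1 to 3 and at 424, 472 and 552 CPM in GFP-positive libraries 1 to 3. Every GFP-positive library lay far above every GFP-negative one. Ccnd1 rose by 1.63 ± 0.15 on the log2 scale (SE, n = 3 each), with an edgeR adjusted p of 0.00077. In GENCODE M21, 1100 of its 4709 exon bases also belong to LTO1 on the other strand, and whether counting used strand is not stated. LTO1 stood at 21.9 and 35.6 CPM in the GFP-negative and GFP-positive groups and did not pass (log2 fold change 0.70, edgeR adjusted p = 0.301). Ccnd2 (ENSMUSG00000000184) stood at 236, 248 and 158 CPM in GFP-negative and 464, 497 and 557 CPM in GFP-positive libraries, again without overlap, and GFP-negative library 3 was the lowest. Ccnd2 rose, and the log2 fold change was 1.24 ± 0.20 with an edgeR adjusted p of 0.00778. Both calls held whichever library was left out, with log2 fold changes of 1.52 to 1.72 for Ccnd1 and 1.06 to 1.36 for Ccnd2.

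Ccnd3 (ENSMUSG00000034165), the D-type cyclin most used by lymphocytes, stood at 158, 142 and 198 CPM in GFP-negative and 247, 281 and 267 CPM in GFP-positive libraries. The groups did not overlap, but the gap between the highest GFP-negative and the lowest GFP-positive library was narrower than for Ccnd1. Ccnd3 rose by 0.67 ± 0.17 on the log2 scale (SE) at an edgeR adjusted p of 0.0376, and this call was lost without GFP-negative library 1 or 2 (adjusted p = 0.127 and 0.122), without GFP-positive library 1, 2 or 3 (0.0698, 0.103 and 0.0769), and with no filter on low counts (0.0546). Scaled per kilobase of exon so that the 3 cyclins can be set side by side, Ccnd1 made up 45.4%, 43.6% and 43.8% of their summed level in the GFP-negative and 53.7%, 54.2% and 56.7% in the GFP-positive libraries. The share of Ccnd3 was 25.5 ± 5.91% and 16.3 ± 1.38% (SD, n = 3 each), and the share of Ccnd2 overlapped between the groups at 30.2 ± 5.69% and 28.9 ± 0.522%. The mix of D-type cyclins thus held relatively more Ccnd1 and less Ccnd3 in every GFP-positive library than in any GFP-negative one. In the same libraries the markers of B cells were lower and those of endothelium and Kupffer cells higher, among them all 8 sinusoidal endothelial markers. Platelet markers were higher in 3 of 5 tested, at 609 to 777 CPM summed in GFP-negative and 1664 to 1884 CPM in GFP-positive libraries. The part of these cell types in the differences was not tested.

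Cdk4 (ENSMUSG00000006728), the kinase that the D-type cyclins activate and p16 inhibits, stood at 167, 174 and 174 CPM in GFP-negative and 261, 363 and 310 CPM in GFP-positive libraries. The GFP-negative libraries were almost level with each other and all lay below the GFP-positive ones. Cdk4 rose by 0.86 ± 0.16 on the log2 scale (SE), with an edgeR adjusted p of 0.0141, a call lost without GFP-negative library 1, 2 or 3 (adjusted p = 0.0633, 0.0607 and 0.0567). In GENCODE M21, 641 of the 3249 exon bases of Cdk4 also belong to Tspan31 on the other strand, and the sources do not say whether counting used strand, so reads of the overlap cannot be told apart. Tspan31 itself stood at 109 and 165 CPM in the GFP-negative and GFP-positive groups and did not pass (log2 fold change 0.60; edgeR adjusted p = 0.0707). The promoter of Cdk4 is printed because it is the kinase of the pathway under p16, with E-boxes (CACGTG, which reads alike on both strands) in capitals. It is the RefSeq window of 250 bases before to 50 bases after the start site (GRCm38.p6, chr10:127063285-127063584, plus strand), written 5′ to 3′.
Cdk4: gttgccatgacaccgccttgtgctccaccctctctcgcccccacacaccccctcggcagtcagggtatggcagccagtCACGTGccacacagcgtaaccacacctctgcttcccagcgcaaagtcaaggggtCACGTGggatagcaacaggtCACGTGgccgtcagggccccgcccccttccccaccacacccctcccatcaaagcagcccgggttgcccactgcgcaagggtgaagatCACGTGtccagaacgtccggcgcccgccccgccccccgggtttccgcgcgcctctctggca
The window holds 4 E-boxes, a sequence that MYC and related factors can bind, and 7.24% of 27025 genes with such a window hold at least 1. A match of letters is a description of the window and not a measured binding site.

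The other kinases of the cycle did not pass the test. Cdk6, the second partner of the D-type cyclins, was low, at 8.22, 3.70 and 8.36 CPM in GFP-negative and 9.36, 0.699 and 1.27 CPM in GFP-positive libraries, and the groups overlapped. Cdk2, the partner of cyclins E and A, stood at 26.6 ± 12.1 and 20.8 ± 9.88 CPM (SD, n = 3 each; log2 fold change −0.35 ± 0.59 SE, edgeR adjusted p = 0.761). Cdk1, the kinase that drives entry into mitosis, had 51, 61 and 173 counts in GFP-negative and 220, 413 and 199 counts in GFP-positive libraries. The groups did not overlap once scaled, at 2.64 to 7.53 CPM against 11.0 to 24.1 CPM. Its log2 fold change of 1.85 ± 0.83 did not pass in edgeR (adjusted p = 0.189) and passed in DESeq2 (adjusted p = 0.0305).

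Of the 2 phosphatases that remove inhibitory marks from these kinases, Cdc25b was lower and Cdc25a did not pass, and the difference between them was not tested. Cdc25b (ENSMUSG00000027330), which acts at the start of mitosis, stood at 74.3, 76.3 and 69.3 CPM in GFP-negative and 14.8, 4.31 and 9.75 CPM in GFP-positive libraries. Every GFP-positive library was far below the closely spaced GFP-negative ones. Its log2 fold change was −2.93 ± 0.50 (SE) at an edgeR adjusted p of 0.00993, and the call held whichever library was left out (−3.38 to −2.57). Cdc25a, which acts earlier in the cycle, had 707, 239 and 481 counts in GFP-negative and 183, 0 and 383 counts in GFP-positive libraries, and with this spread did not pass (log2 fold change −1.12 ± 1.56, edgeR adjusted p = 0.706). The promoter of Cdc25b (chr2:131186698-131186997, plus strand) is shown with the cell cycle homology region, CHR (TTTGAA or TTCGAA, on either strand), and the CCAAT box (on either strand) in capitals, since both are typical of genes of mitosis.
Cdc25b: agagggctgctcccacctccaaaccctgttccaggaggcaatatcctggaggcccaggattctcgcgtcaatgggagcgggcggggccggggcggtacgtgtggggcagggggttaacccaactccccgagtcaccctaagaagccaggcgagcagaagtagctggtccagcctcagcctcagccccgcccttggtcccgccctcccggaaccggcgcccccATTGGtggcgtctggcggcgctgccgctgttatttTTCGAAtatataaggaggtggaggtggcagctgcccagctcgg
It holds 1 CHR and 1 CCAAT box. Of all genes with a window 19.4% hold a CHR and 37.9% a CCAAT box, and of the 35 cell-cycle genes with a window 40.0% and 68.6%. Ccnd1, Ccnd2, Ccne2, Ccna2, E2f4, Foxm1, Mcm4, Aurkb and Stmn1 had no entry.

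**Figure D2:**
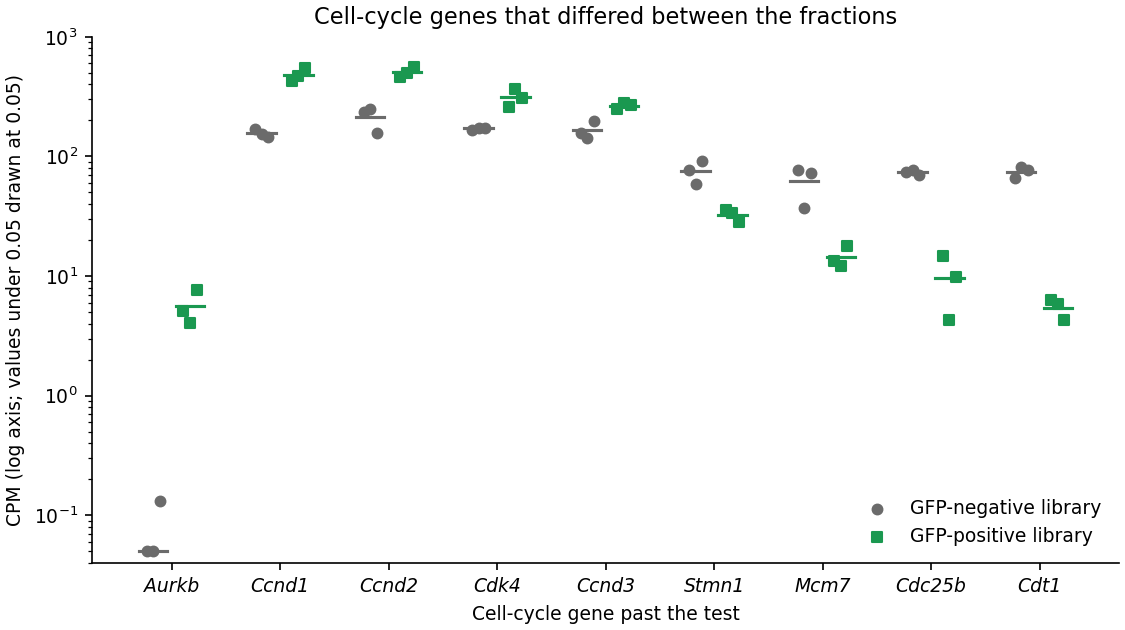
Level in CPM on a log axis of the 9 cell-cycle genes past the test, in each GFP-negative (grey circles) and GFP-positive (green squares) library, with a bar at each group mean (n = 3). In all 9 the groups do not overlap, and Aurkb is near 0 in the GFP-negative libraries.

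The cyclins of later phases were scarce in both fractions. Ccne2, a cyclin E of the G1 to S transition, had 70, 0 and 0 counts in GFP-negative and 304, 10 and 0 counts in GFP-positive libraries. Ccna2, cyclin A of S phase, had 0, 0 and 104 counts and 0, 20 and 0 counts, and Ccnb1, a cyclin B of mitosis, had 0, 34 and 0 counts and 0, 46 and 0 counts. A library without any count thus stood beside one with at least 20 in the same group. Ccnb2, the other mitotic cyclin B, was the most evenly detected of them, at 112, 0 and 59 counts in GFP-negative and 140, 83 and 165 counts in GFP-positive libraries, and did not pass (log2 fold change 1.44 ± 1.71, edgeR adjusted p = 0.647). Ccne1, the other cyclin E, had 21, 1 and 0 counts in GFP-negative and 0 in all GFP-positive libraries. Ccne1, Ccna2 and Ccnb1 were under the filter on low counts.

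The 3 transcription factors tested did not pass. E2f4, a repressor E2F of resting cells, was the one detected evenly, at 63.9, 42.5 and 51.1 CPM in GFP-negative and 50.2, 61.9 and 55.8 CPM in GFP-positive libraries (log2 fold change 0.09 ± 0.28 SE, edgeR adjusted p = 0.878). E2f1, an activator E2F, stood at 7.32 ± 6.21 and 8.04 ± 3.30 CPM (SD, n = 3 each; edgeR adjusted p = 0.951). E2f2, another activator, had 395, 336 and 31 counts in GFP-negative and 0, 0 and 105 counts in GFP-positive libraries (log2 fold change −2.79 ± 2.31 SE, edgeR adjusted p = 0.492). The GFP-positive counts of E2f2 came from 1 library. E2f3 was under the filter, with 1, 0 and 65 counts and 8, 1 and 52 counts. Foxm1, the factor of the mitotic programme, had 0 counts in all GFP-negative and 2, 2 and 0 counts in GFP-positive libraries, and Mybl2, which encodes B-MYB, had 100 counts in GFP-negative library 1 and 0 in the other 5 libraries. A group without counts allows a level of up to 0.0496 CPM (GFP-negative) or 0.0584 CPM (GFP-positive; 3 counts over the group, counting error only).

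Of the 8 genes that license origins of replication, 2 were lower, 0 were higher and 6 did not pass. Cdt1 (ENSMUSG00000006585), which loads the MCM helicase onto DNA, stood at 65.4, 81.9 and 76.5 CPM in GFP-negative and 6.26, 5.83 and 4.27 CPM in GFP-positive libraries. The groups lay far apart, with means of 74.6 ± 8.40 and 5.45 ± 1.05 CPM (SD, n = 3 each). Its log2 fold change of −3.77 ± 0.35 (SE) passed at an edgeR adjusted p of 0.000715 and was the most negative of the 35 genes, and with −3.88 to −3.63 whichever library was left out. Its partner in loading, Cdc6, had 120, 0 and 43 counts in GFP-negative and 139, 0 and 0 counts in GFP-positive libraries, and the test gave no direction for it (log2 fold change 0.09 ± 2.65, edgeR adjusted p = 0.988). The summed level of B cell markers was also lower between the groups, at 13735 ± 631 CPM in GFP-negative and 119 ± 44.1 CPM in GFP-positive libraries. The summed markers of T and NK cells, erythroid cells, hepatocytes and plasma cells were lower too. Single markers did not all go this way: 2 of 6 plasma cell and 1 of 6 hepatocyte markers had log2 fold changes above 0. Within the GFP-negative group the B cell sum was highest in library 1, at 14433 CPM, where Cdt1 was lowest, at 65.4 CPM. Within the GFP-positive group both were highest in library 1, at 170 and 6.26 CPM. With 3 libraries in each group, these orders were not tested and cannot tell which cells held the Cdt1 transcripts. The part of these cell types in the fall of Cdt1 was not tested.

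Of the 6 subunits of the MCM2-7 helicase, which form 1 ring in equal numbers and unwind DNA at the fork, Mcm7 was lower and 5 did not pass. Mcm7 (ENSMUSG00000029730) stood at 76.5, 37.2 and 72.1 CPM in GFP-negative and 13.3, 12.1 and 17.7 CPM in GFP-positive libraries, without overlap. Mcm7 fell by 2.10 ± 0.41 on the log2 scale (SE) at an edgeR adjusted p of 0.0154, a call lost without GFP-negative library 1 or 3 (adjusted p = 0.0715 and 0.0672). Mcm2, at 61.7 ± 23.0 and 17.7 ± 14.4 CPM, and Mcm4, at 68.8 ± 16.4 and 21.8 ± 15.6 CPM (SD, n = 3 each), were also without overlap but did not pass (edgeR adjusted p = 0.214 and 0.0998). Mcm4 passed in DESeq2 (adjusted p = 0.0227). Mcm5 stood at 72.4, 62.4 and 39.0 CPM against 48.8, 9.09 and 5.98 CPM and overlapped because of GFP-positive library 1. Without that library, Mcm5 and Mcm4 both passed in edgeR, with log2 fold changes of −2.94 and −2.37 (adjusted p = 0.0176 and 0.0373) against −1.45 and −1.66 with all libraries.

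Mcm3 and Mcm6 had log2 fold changes above 0, and neither passed in edgeR. Mcm3 (ENSMUSG00000041859) stood at 80.5, 54.7 and 74.2 CPM in GFP-negative and 141, 94.2 and 116 CPM in GFP-positive libraries, all GFP-positive ones above all GFP-negative ones. Its log2 fold change of 0.75 ± 0.25 did not pass in edgeR (adjusted p = 0.0926) and passed in DESeq2 (adjusted p = 0.0226). Mcm6 overlapped between the groups, at 96.0, 30.8 and 86.6 CPM and 88.5, 78.6 and 67.2 CPM (log2 fold change 0.13 ± 0.43, edgeR adjusted p = 0.883). Per kilobase of exon, Mcm3 made up 21.3%, 19.8% and 20.5% of the summed level of the 6 subunits in GFP-negative and 43.2%, 48.1% and 55.0% in GFP-positive libraries. The share of Mcm7 was 15.1 ± 3.21% and 5.27 ± 1.82%, and that of Mcm6 16.2 ± 6.29% and 26.6 ± 5.32% (SD, n = 3 each). The shares of Mcm3 and Mcm6 were higher and those of Mcm2, Mcm4 and Mcm7 lower in every GFP-positive library than in any GFP-negative one, and those of Mcm5 overlapped. These shares were picked out after the levels had been seen, so no test is given.

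**Figure D3:**
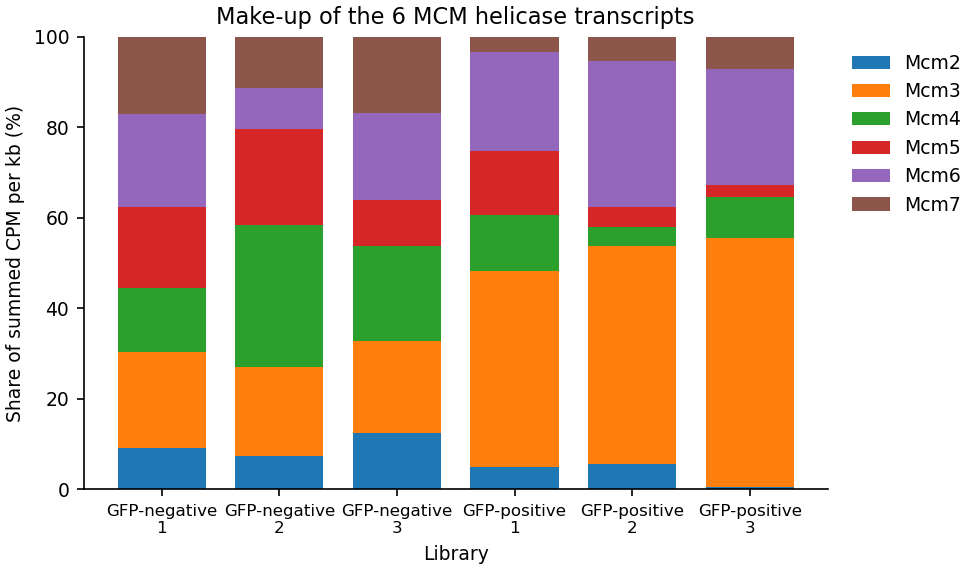
Share in percent of each of the 6 MCM subunit transcripts in their summed level per kilobase of exon, 1 bar for each library. Mcm3 takes 19.8% to 21.3% in the GFP-negative and 43.2% to 55.0% in the GFP-positive libraries.

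The promoters of Mcm7, which fell, of Mcm3, which did not pass, and of Cdt1 are printed to set these licensing genes side by side. They are RefSeq windows of GRCm38.p6: Mcm7 at chr5:138171834-138172133, minus strand (the first listed of its 2), Mcm3 at chr1:20820263-20820562, minus strand and Cdt1 at chr8:122567765-122568064, plus strand. Capitals mark E2F sites (TTTCGCGC, TTTGGCGC, TTTCCCGC or TTTGCCGC, on either strand), the CHR and the CCAAT box as above. In Mcm7 an E2F site and a CCAAT box overlap at the second E2F site.
Mcm7: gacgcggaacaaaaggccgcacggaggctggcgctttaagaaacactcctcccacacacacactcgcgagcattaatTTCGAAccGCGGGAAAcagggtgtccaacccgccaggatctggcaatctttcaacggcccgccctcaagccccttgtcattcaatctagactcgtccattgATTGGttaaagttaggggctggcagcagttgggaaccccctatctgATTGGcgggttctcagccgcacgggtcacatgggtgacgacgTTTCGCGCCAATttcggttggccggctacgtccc
Mcm3: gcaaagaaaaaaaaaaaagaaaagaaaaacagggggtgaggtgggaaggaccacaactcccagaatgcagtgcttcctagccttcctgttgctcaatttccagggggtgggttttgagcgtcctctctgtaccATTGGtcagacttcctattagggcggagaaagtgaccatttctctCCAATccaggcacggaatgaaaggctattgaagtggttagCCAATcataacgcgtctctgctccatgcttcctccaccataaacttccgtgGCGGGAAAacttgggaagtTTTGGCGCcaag
Cdt1: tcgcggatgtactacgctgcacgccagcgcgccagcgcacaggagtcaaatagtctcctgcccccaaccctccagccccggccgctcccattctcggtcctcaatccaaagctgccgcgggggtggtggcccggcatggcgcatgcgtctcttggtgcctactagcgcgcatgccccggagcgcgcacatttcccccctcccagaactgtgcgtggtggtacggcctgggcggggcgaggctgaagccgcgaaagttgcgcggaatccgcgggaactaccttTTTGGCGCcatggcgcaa
Mcm7 and Mcm3 each hold 2 E2F sites and 3 CCAAT boxes, and Mcm7 also 1 CHR. Cdt1 holds 1 E2F site and neither of the others. Of all genes with a window 2.32% hold such an E2F site, and of the 35 cell-cycle genes with a window 31.4%.

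None of the 4 genes of DNA synthesis and nucleotide supply passed the test. Pcna, the sliding clamp of DNA polymerases, stood at 68.4, 61.4 and 54.6 CPM in GFP-negative and 45.9, 62.1 and 45.4 CPM in GFP-positive libraries. The groups overlapped, and the log2 fold change was −0.27 ± 0.27 (SE; edgeR adjusted p = 0.581). Rrm1, the large subunit of ribonucleotide reductase, stood at 54.2 ± 10.1 and 66.8 ± 25.8 CPM and Tyms, thymidylate synthase, at 19.9 ± 1.81 and 23.3 ± 10.4 CPM (SD, n = 3 each; edgeR adjusted p = 0.659 and 0.817). Rrm2, the small subunit that is made in S phase, had 195, 1 and 314 counts in GFP-negative and 82, 157 and 272 counts in GFP-positive libraries (edgeR adjusted p = 0.927). The 4 log2 fold changes lay between −0.27 and 0.30 with standard errors of 0.27 to 1.48.

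Among the genes of mitosis, Aurkb was higher in GFP-positive libraries. Aurkb (ENSMUSG00000020897), the kinase of the chromosomal passenger complex, had 0, 0 and 3 counts in GFP-negative and 83, 69 and 138 counts in GFP-positive libraries. All its GFP-negative counts came from library 3, and each GFP-positive library had more. It thus passed the filter on low counts only through the group in which it was high. The ratio of the GFP-positive mean to the GFP-negative level was 113 (exact 95% counting interval 38.6 to 547, which covers counting error in the low group only). It passed narrowly at an edgeR adjusted p of 0.0472, and its fitted log2 value, 6.75 ± 1.85 (SE), depends on a prior count. No omission of a single library kept this call (adjusted p between 0.0799 and 0.156, from omitting GFP-negative library 3 and library 1), nor did it hold with no filter on low counts (0.117) or with immunoglobulin and lymphocyte genes left out (0.0529). Without GFP-negative library 3 the fitted value was 9.64.

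The other mitotic genes did not pass. Bub1, a kinase of the spindle checkpoint, had 1, 0 and 0 counts in GFP-negative and 1, 17 and 278 counts in GFP-positive libraries, nearly all in GFP-positive library 3. It was under the filter, and without it edgeR gave an adjusted p of 0.142 and DESeq2 one of 0.00397. Plk1, the Polo-like kinase, had 63, 1 and 0 counts and 167, 221 and 0 counts, and Birc5, survivin, had 97, 1 and 93 counts and 111, 272 and 52 counts (edgeR adjusted p = 0.539 and 0.588). Aurka, the kinase of the spindle poles, had 217, 109 and 7 counts and 179, 0 and 122 counts, and Ube2c, which loads ubiquitin for the anaphase-promoting complex, 128, 162 and 115 counts and 87, 240 and 16 counts. Both had group means that were nearly the same (edgeR adjusted p = 0.995 and 0.994). Cdc20, an activator of the same complex, was under the filter, with 0, 123 and 0 counts and 0, 5 and 0 counts. Bub3, a checkpoint protein that most cells make, was the one mitotic gene with even counts, at 163, 157 and 169 CPM in GFP-negative and 129, 148 and 133 CPM in GFP-positive libraries, without overlap (log2 fold change −0.25 ± 0.15, edgeR adjusted p = 0.331).

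Mki67 and Top2a, the common proliferation markers, gave no call. Mki67, the gene of the Ki-67 antigen, had 1, 1 and 56 counts in GFP-negative and 22, 0 and 0 counts in GFP-positive libraries and was under the filter. Top2a, the topoisomerase of dividing cells, had 256, 4 and 366 counts and 323, 560 and 172 counts, at 9.79 ± 8.40 and 20.7 ± 11.6 CPM (SD, n = 3 each), which overlapped (log2 fold change 1.08 ± 1.26 SE, edgeR adjusted p = 0.640). Stmn1 (ENSMUSG00000028832), a tubulin-binding protein of dividing cells, stood at 77.0, 59.0 and 92.3 CPM in GFP-negative and 35.5, 33.9 and 28.2 CPM in GFP-positive libraries, without overlap. Stmn1 fell by 1.23 ± 0.29 on the log2 scale (SE) at an edgeR adjusted p of 0.028, which no omission of a single library kept (adjusted p between 0.0504 and 0.106, from omitting GFP-negative library 2 and library 3). Tuba1b, an alpha-tubulin with near-identical paralogs that share reads, stood at 185 ± 13.4 and 242 ± 45.5 CPM and did not pass (edgeR adjusted p = 0.215).

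Uneven detection within a group was common among these genes. Of the 44 genes 15 had, within 1 group, a library with 1 count or none and another with 50 counts or more, and 5 of these 15 were among the 8 mitotic genes. Of 17 tested cell-cycle genes with a mean under 25 CPM over all libraries, 9 (52.9%) showed this, against 28.9% of 6016 such genes among all tested. Its cause was not tested. The thresholds were set after the counts had been seen.

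**Figure D4:**
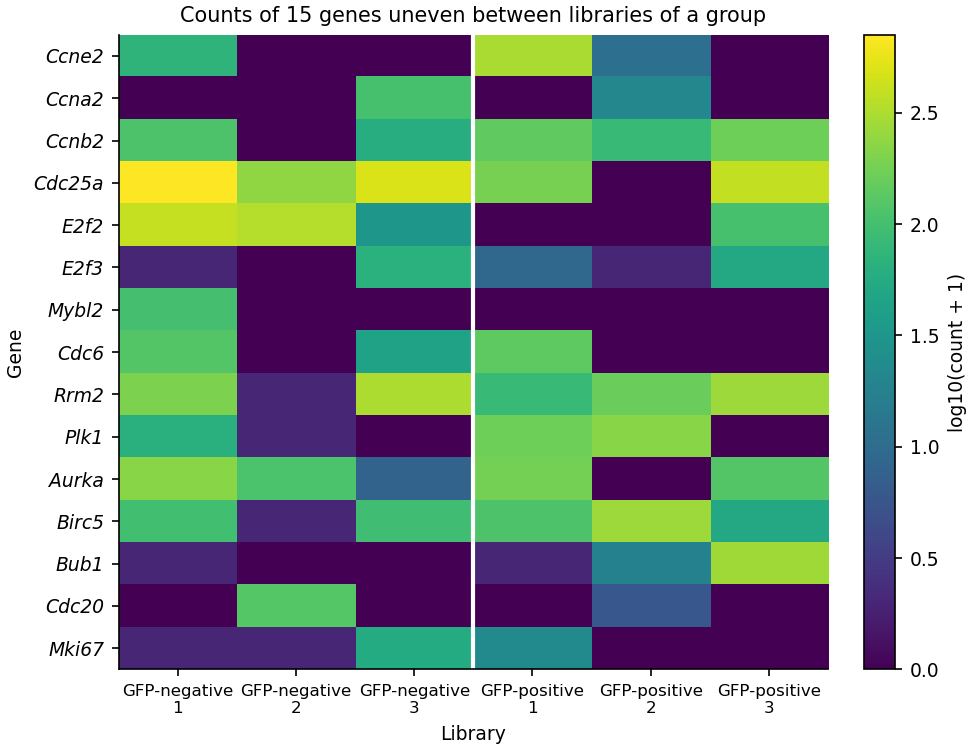
Counts, as log10(count + 1), of the 15 cell-cycle genes with a library at 1 count or fewer and another at 50 or more in the same group, 1 column for each library and a white line between the groups. Dark cells with no counts occur in both fractions, for example Cdc6 in GFP-negative library 2 and Mybl2 in 5 of 6 libraries.

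Few of the other genes of the cycle passed the test. Among 110 further genes listed by function, 83 were tested, 0 were higher and 2 (2.41%) lower, against 17.8% of all genes called in either direction. The 17.8% covers genes of every level and was not matched to the counts of these lists. At an unadjusted p under 0.05 in edgeR there were 3 higher and 6 lower, and DESeq2 called 3 higher and 9 lower. The replication list had 39 of 41 genes tested, with 1 lower and a median log2 fold change of −0.29. The mitosis list had 24 of 42 tested with none past the test (median −0.04), and the list of other regulators 20 of 27 with 1 lower (median 0.08). In the mitosis list, Spc25 had 1, 6 and 0 counts in GFP-negative and 393, 47 and 194 counts in GFP-positive libraries (log2 fold change 6.58 ± 1.88 SE, edgeR adjusted p = 0.0544). Ndc80 had 321, 380 and 533 counts and 0, 37 and 0 counts (−4.80 ± 2.02, edgeR adjusted p = 0.162). Neither overlapped between the groups, and each passed the filter only through its higher group.

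Both lower genes were well detected in GFP-negative libraries. Pold1, the catalytic subunit of DNA polymerase delta, stood at 96.5, 125 and 69.6 CPM in GFP-negative and 6.57, 9.55 and 5.60 CPM in GFP-positive libraries (log2 fold change −3.75 ± 0.39 SE, edgeR adjusted p = 0.00127). Myc, a transcription factor that drives growth and is also an early-response gene, stood at 283, 284 and 312 CPM in GFP-negative and 0.991, 0.175 and 5.82 CPM in GFP-positive libraries (log2 fold change −6.96 ± 1.06, edgeR adjusted p = 0.00645). Neither gene's groups overlapped. With 0.175 CPM in GFP-positive library 2, Myc passed the filter on low counts only through the group in which it was high. Cdt1, Mcm7, Cdc25b, Stmn1, Pold1 and Myc were picked out for being lower in the GFP-positive libraries. That they share this direction with a marker list was therefore given by the choice. Of the 35 cell-cycle genes 21 had a log2 fold change above 0 in the same comparison. B cell markers were lower in 9 of 9 tested. T and NK cell markers were lower in 2 of 8 tested (751 to 800 CPM summed against 16.8 to 37.5 CPM), with Cd8a at 0 counts in the GFP-positive libraries. Erythroid markers were lower in 1 of 5 tested, at 5456 to 7515 CPM summed in GFP-negative and 38.5 to 1006 CPM in GFP-positive libraries. The highest GFP-positive erythroid value was in library 1. Hepatocyte markers were lower in 3 of 6 tested, at 2229 to 2398 CPM summed in GFP-negative and 1194 to 1753 CPM in GFP-positive libraries. Plasma cell markers were lower in 2 of 6 tested, at 507 to 529 CPM and 285 to 320 CPM. Of these 6, 4 had a log2 fold change below 0 and 2 above 0, up to 2.40. Of the 6 hepatocyte markers 5 were below 0 and 1 above. Of 5 germinal centre B cell markers 2 were tested, and 0 passed. What these cell types add to the lower genes was not tested.

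Summed over all 44 genes, the level was 2099, 1860 and 2013 CPM in GFP-negative and 2571, 2681 and 2581 CPM in GFP-positive libraries. The 8 cyclins accounted for the higher sum, at 542 ± 32.9 and 1269 ± 112 CPM (SD, n = 3 each), and nearly all of this was the 3 D-type cyclins. The 8 licensing genes summed to 469 ± 70.5 and 279 ± 83.9 CPM, the 4 genes of DNA synthesis to 143 ± 10.0 and 151 ± 33.8 CPM, and the 8 mitotic genes to 182 ± 6.12 and 177 ± 16.6 CPM, mostly Bub3. The sums are descriptions without a test.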

How the data were processed

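Raw counts of each gene in the 6 libraries, whole numbers without normalization, were deposited by the authors. Per the submitters' processing notes, the tools were edgeR, DESeq 1.18.0, RSEM, HTSeq 0.6.1, TopHat2 2.0.12 and Bowtie2 2.2.3, with no role stated. Of the counting, the genome build, annotation and strand setting were not given in the sources used here. Groups came from the label of sorted cells, and symbols from a supplied table (34490 of 35275 identifiers matched). Counts were filtered by edgeR's expression filter (minimum count 10), scaled by TMM and compared by the quasi-likelihood test with robust dispersions in edgeR 4.0.16 (R 4.3.3), with Benjamini-Hochberg adjustment over 12122 genes. DESeq2 1.42.0 was an alternative. The script was tested on simulated data with less spread between libraries than these data, so that test does not cover genes with counts as uneven as many here. Standard errors are the log2 fold change over the root of the F statistic. CPM use TMM library sizes, and lengths are the union of GENCODE M21 exons. The members and lists were chosen with earlier results of these data known. All 44 genes are named, and from the 3 further lists up to 4 genes with the smallest p in each direction past the test. Spc25 and Ndc80, which did not pass, are named in addition. Intervals and floors cover counting error only. Ccnd3, Ccnb1, Ccnb2, Pcna, Tyms and Stmn1 have similar copies or pseudogenes that could share reads. Exon bases are shared with genes on the other strand by Ccna2, Ccnd1, Ccnd2, Ccnd3, Ccne2, Cdc20 and Cdc25b. The same holds for Cdk2, Cdk4, Cdk6, Mcm7, Plk1, Tuba1b and Ube2c. Genes on the same strand share exon bases of Foxm1, Mcm7, Stmn1, Top2a and Tuba1b, whatever the strand setting. In Tuba1b these are 426 of 1875 bases, shared with Gm49450.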

Additional observations from a re-analysis of the deposited data

How the results depend on the processing

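Counts of calls depended on the test, the filter and single libraries. Among the cell-cycle genes 5 were higher with edgeR, 8 with DESeq2 and 3 with no filter, and 2 to 3 with 1 library left out. The 4 lower became 2 to 5. Over all genes, 927 higher became 1693 with DESeq2 and 497 to 743 with 1 library left out, and 1230 lower became 2089 and 496 to 1067. In the further lists, 0 higher became 3 with DESeq2 and 0 to 1 with 1 library left out, and 2 lower became 9 and 2 to 5. Ccnd1, Ccnd2, Cdc25b and Cdt1 passed in all 6 such fits. Leaving a library out leaves 2 in its group, so fewer samples are tested. Among genes that did not pass, the log2 fold change took both signs with 1 library left out: −2.03 to 9.90 for Ccne2, −0.70 to 0.028 for Cdk2, −0.27 to 1.07 for E2f1, −0.045 to 0.25 for E2f4 and −8.69 to 1.60 for Cdc6. It ran from −0.23 to 0.41 for Mcm6, −0.18 to 0.46 for Tyms, −0.29 to 0.94 for Rrm2, −0.79 to 0.91 for Aurka and −1.12 to 0.50 for Ube2c. With library totals alone, Aurka was at −0.0048 against 0.03. The cause of these changes was not tested. No paired analysis was possible because the labels give the groups no shared replicate numbers. The 9 cell-cycle genes under the filter had too few libraries with enough counts, and edgeR with the filter gives no test of them.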
